A study of Petromyzon marinus with 12 samples.

Results

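The RNA polymerase II and Mediator genes described here are a set of 112 genes of the general transcription machinery, of 21967 gene rows in the count table. They were chosen by symbol: every row whose symbol names a subunit of RNA polymerase II or III (POLR2, POLR3), a Mediator subunit (MED), a general transcription factor (GTF2, GTF3, TAF, TBP-like), an Integrator subunit (INTS), a transcription kinase or cyclin, an elongation factor, or a cleavage and polyadenylation factor (CPSF, CSTF). Polymerase II and Mediator proper are 10 and 24 of the 112, so the set is wider than its name. Another 15 members are subunits of RNA polymerase III or of its factor TFIIIC. The tissue was the endostyle of the sea lamprey (Petromyzon marinus), a groove in the floor of the larval pharynx from which the lamprey thyroid later forms. Bulk RNA was sequenced from stages T27, T28, T29 and T30, each as 3 libraries. All animals are labelled wild type with no treatment given, and the labels neither define the stages nor say whether the 3 libraries of a stage came from separate animals or from pools.

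RNA polymerase II transcribes the protein-coding genes. General transcription factors place it at promoters, TFIID by binding core promoter DNA and TFIIH by opening DNA and phosphorylating the tail of the largest polymerase subunit, and Mediator carries signals from enhancer-bound factors to the polymerase. After initiation the enzyme pauses until CDK9 releases it, elongation factors and the histone chaperone FACT help it through chromatin, and Integrator or the cleavage and polyadenylation factors end the transcript. RNA polymerase III makes transfer RNA, the smallest ribosomal RNA and other short RNAs, and it shares a few subunits with RNA polymerases I and II.

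All 112 members passed the filter on low counts, and the lowest count of any member in any library was 50. The libraries held 28371140 to 36032488 counts. Levels within a gene are given as CPM, the count relative to the TMM-scaled library size, and levels between genes as TPM, which also divides by exon length. Changes are log2 fold changes from edgeR's quasi-likelihood fit over all 12 libraries, with a standard error (SE) and a p-value adjusted by the Benjamini-Hochberg method over 16526 genes, and "rose" or "fell" is used of genes with an adjusted p under 0.05. Between 3 libraries of a stage, the SD of a member was 6.59% of its mean CPM at the median.

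The members together took a smaller share of the RNA at each later stage. Summed over the 112 genes, the T27 libraries lay between 6418 and 7073 CPM, those of T28 between 5875 and 6044, those of T29 between 5500 and 5802, and those of T30 between 4180 and 4388. On the TPM scale the sums were 6386 to 6554, 5539 to 5842, 5232 to 5439 and 4018 to 4121 in the same order of stages. The libraries of any 2 stages did not overlap in either sum. Mean CPM was highest at T27 in 85 members and lowest at T30 in 87, and in 58 members it was lower at every later stage. The order of stage means was not counted over all genes. In bulk RNA, fewer cells of a type and less of an RNA per cell cannot be told apart.

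**Figure D1:**
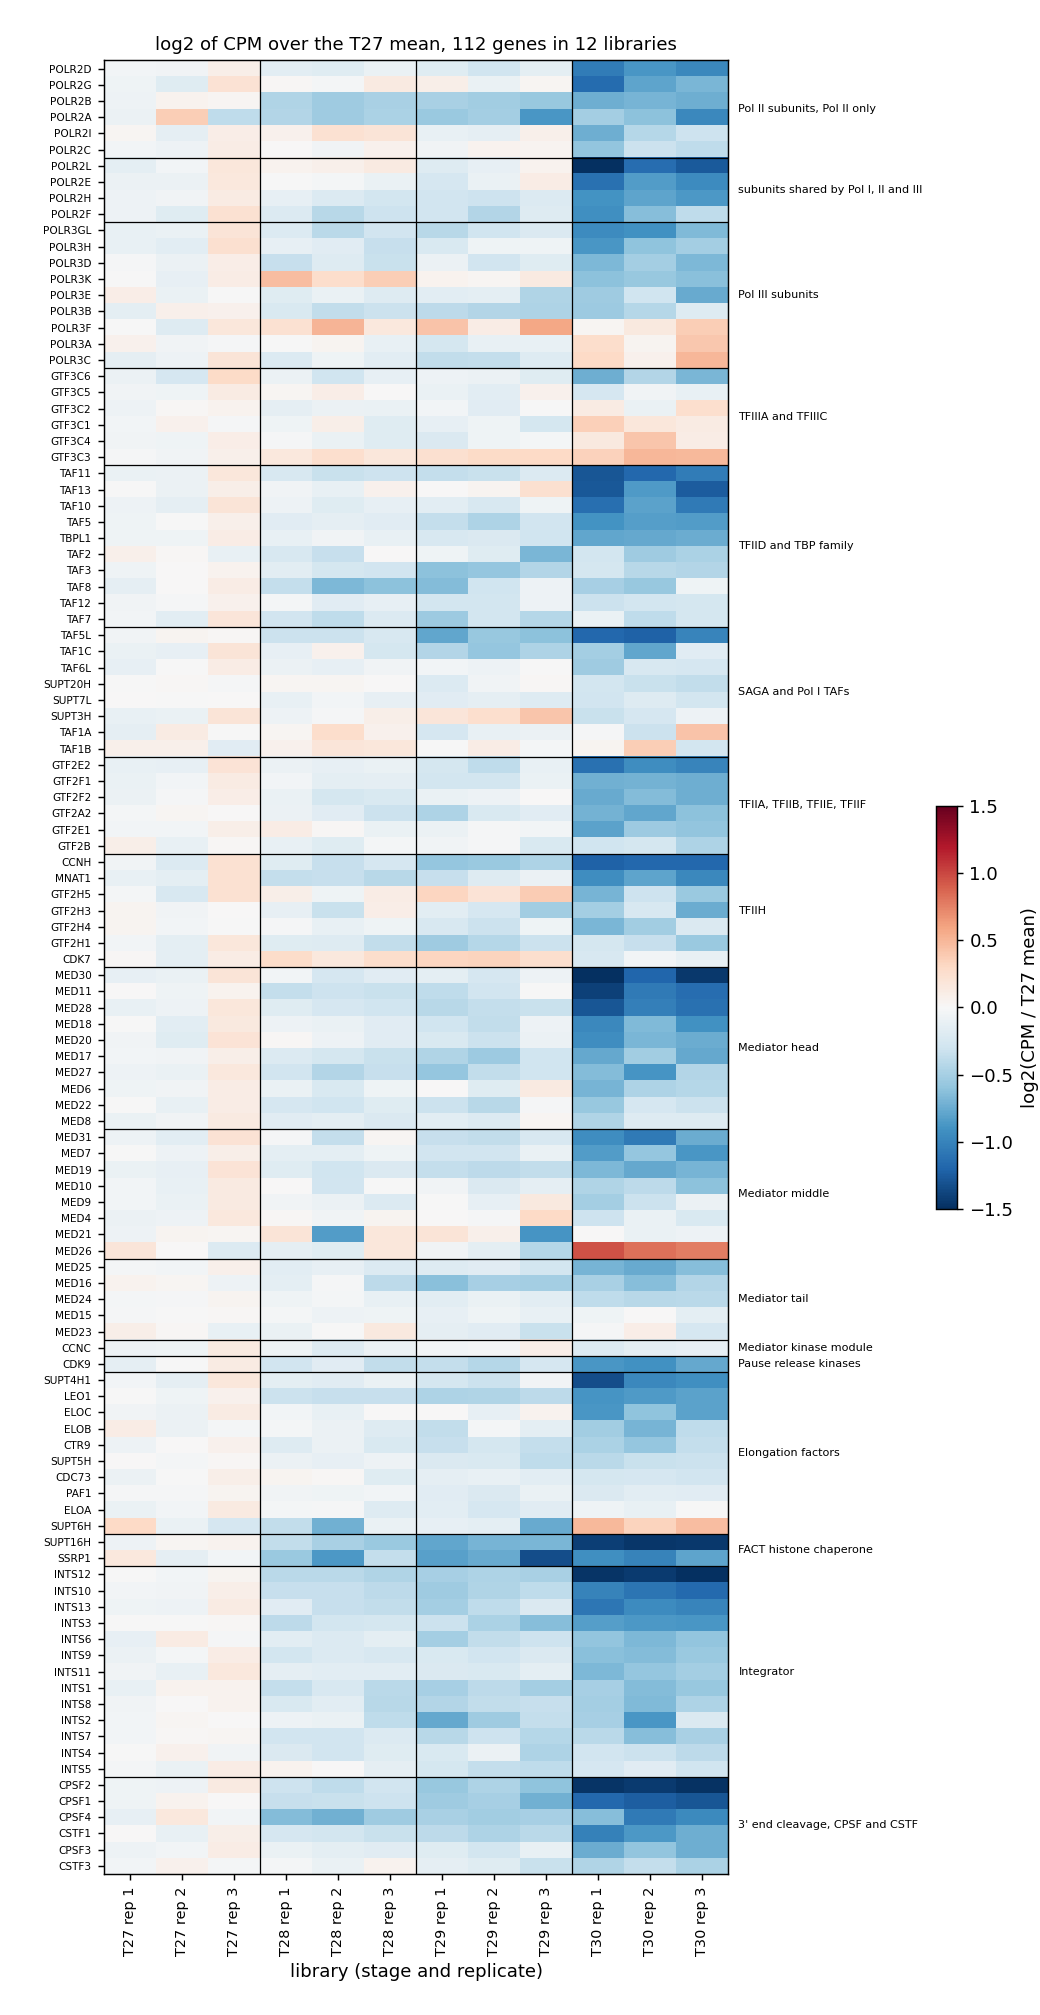
Each row is 1 of the 112 genes and each column 1 of 12 libraries (stage and replicate); colour gives log2 of CPM over the gene's T27 mean, with rows grouped by role and sorted by the T30 against T27 change. Most rows are darkest blue in the 3 T30 columns, and MED26 is the reddest row there.

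In edgeR's quasi-likelihood test of any change between stages, 95 of the 112 members changed, beside 76.8% of all genes tested and 78.9% of those with a symbol. The 17 that did not pass this test include CCNC (cyclin C of the Mediator kinase module), ELOA (elongin A), the Mediator subunits MED4, MED8, MED9, MED15, MED21, MED22 and MED23, and the TFIIIC subunits GTF3C2 and GTF3C5.

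The comparison over the whole span, T30 against T27, asks which parts of the machinery were lower or higher at the last stage sampled. In that comparison 90 members fell and 5 rose, which is 84.8% called, beside 68.8% of all genes tested. The split by direction was further from that of all genes: 80.4% of members fell and 4.46% rose, whereas among all genes 34.1% were lower and 34.8% higher. The median log2 change was −0.56 over the members and 0.01 over all genes tested. Among the 5783 tested genes that carry a symbol, as every member does, 72.2% were called, 44.1% fell, 28.1% rose and the median was −0.14. The T30 libraries lay wholly below the T27 libraries in 91 members and wholly above in 5, beside 35.6% and 35.9% of all genes (71.5% in both directions). Most falls were moderate: 16 members fell more than 2-fold, and 71 of the calls were falls of 0.25 to 1 on the log2 scale. Of the rises, 0 were more than 2-fold. Calls of these sizes were not counted over all genes. Called or not, log2 bins of 0.25 starting at −1, −0.75 and −0.5 held 17.9%, 25.0% and 21.4% of members. All genes had 5.75%, 8.48% and 10.6% there. Bins starting at −1.75, −1.5 and −1.25 held 0.893%, 3.57% and 9.82% of members, beside 1.41%, 2.26% and 3.7%. All genes, unlike the members, also reached below −1.75. With each of 12 libraries left out in turn or with another scaling, filter or tool, 84 of the 95 calls passed under every alternative. The 11 that were lost without at least 1 T27 or T30 library are the falls of MED8, MED9, MED22, GTF2H3, TAF1C, TAF2, TAF6L and INTS5, with adjusted p up to 0.144, and the rises of POLR3A, POLR3C and GTF3C1.

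**Figure D2:**
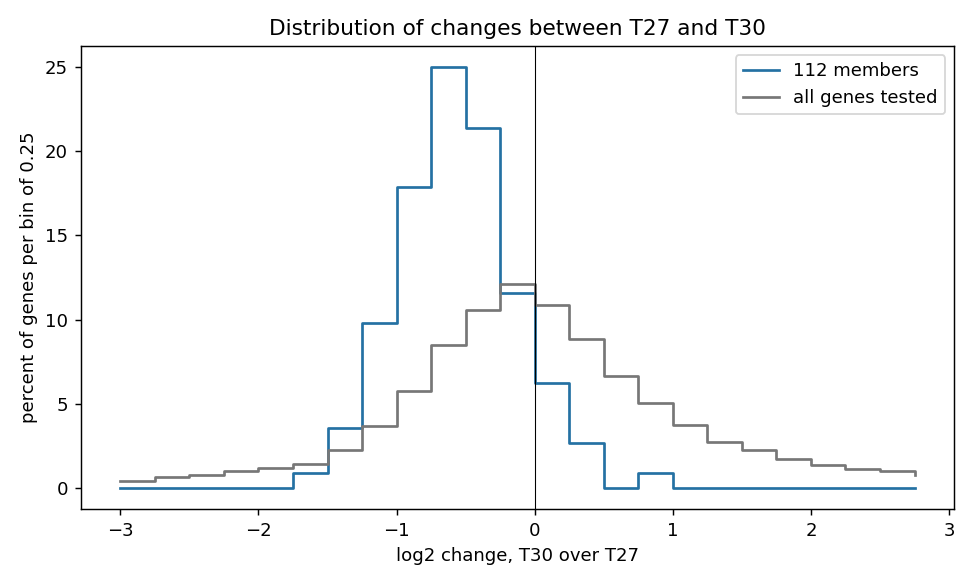
Percent of genes per bin of 0.25 in log2 change, T30 over T27, for the 112 members (blue) and all 16526 genes tested (grey). The members' median is −0.56 and that of all genes is 0.01.

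**Figure D3:**
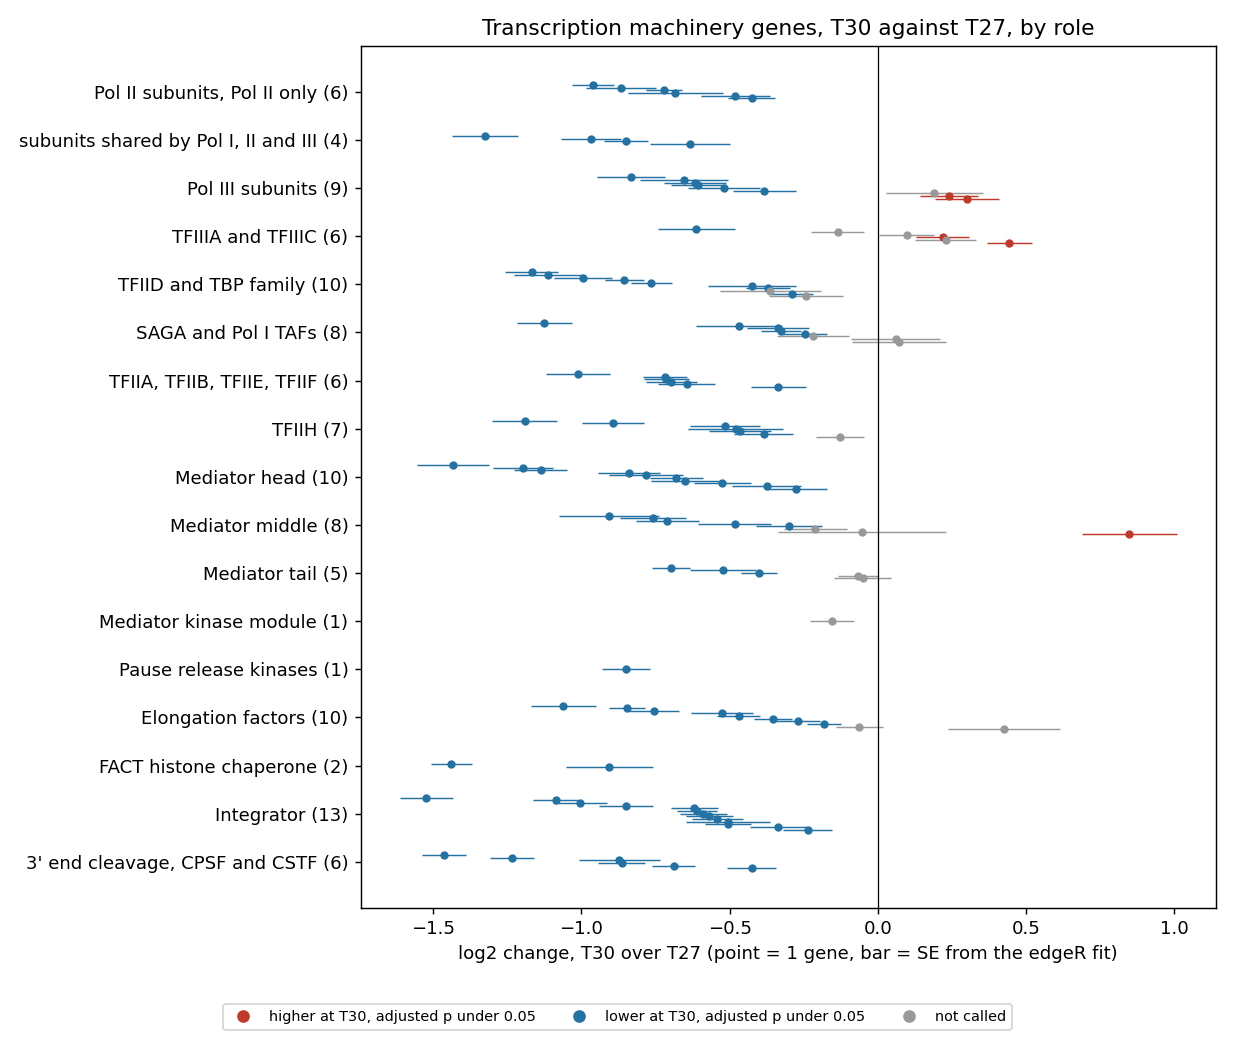
Points are members, placed by log2 change of T30 over T27 with the SE of the fit as bars and grouped by role with the number of members in brackets; blue is lower at T30, red higher, grey not called. Red points lie in the polymerase III, TFIIIC and Mediator middle rows.

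All 10 polymerase II subunits among the members fell between T27 and T30, and the steps at which they were called differed. Of these, 6 belong to polymerase II alone, from a list of 10 genes. The other 4 are shared with polymerases I and III, from a list of 5. POLR2J and POLR2K were not found by symbol. The large subunits POLR2A and POLR2B fell at the first step, T28 against T27, and POLR2B again at the last, T30 against T29. The other 8 had no call before the last step and all fell there; the POLR2F call at that step was lost without any 1 of 6 libraries (highest adjusted p = 0.216, without T30 replicate 1).

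POLR2A is the largest subunit and carries the catalytic centre and the phosphorylated tail. It had 61.6, 84.7 and 50.2 CPM in the T27 libraries, 48.1, 45.2 and 47.3 at T28, 44.4, 46.0 and 35.7 at T29, and 46.0, 42.7 and 33.6 at T30. All T27 libraries were above all later ones, with a wide spread at T27, and the libraries of T28, T29 and T30 overlapped. The first step was −0.48 (SE 0.16, adjusted p = 0.0387 in edgeR's quasi-likelihood test) and the last was −0.04 (SE 0.16, adjusted p = 0.835). The first-step call was lost without T27 replicate 2, the highest library (adjusted p = 0.224), and without T28 replicate 1, 2 or 3 (adjusted p = 0.0765, 0.106 and 0.0851). Over the whole span the change was −0.68 (SE 0.16, adjusted p = 0.00162), and it passed under all 19 alternatives.

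POLR2B, the second-largest subunit, forms the other face of the active centre; the authors' file places it on the minus strand of NC_046077.1, positions 13971787 to 13999795 in kPetMar1. It had 168, 183 and 180 CPM at T27, 130, 122 and 127 at T28, 126, 123 and 120 at T29, and 106, 109 and 107 at T30. The T27 libraries stood clear of T28, the T28 and T29 libraries overlapped, and the T30 libraries were lowest. Its first step of −0.49 (SE 0.06, adjusted p = 6.62e-05) was larger than its last of −0.20 (SE 0.06, adjusted p = 0.0113). That difference between steps passed its own test (0.29, SE 0.09, adjusted p = 0.0128).

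POLR2L, a small subunit shared by all 3 polymerases, fell late. It lies on the minus strand of NC_046075.1, positions 8129217 to 8131983. It had 58.5, 62.5 and 72.6 CPM at T27, 66.8, 68.2 and 70.8 at T28, 56.6, 59.5 and 66.8 at T29, and 21.3, 29.1 and 26.9 at T30. The T27, T28 and T29 libraries overlapped, and the highest T30 library was under the lowest of the rest. The last step was −1.24 (SE 0.11, adjusted p = 3.48e-07), against 0.09 (SE 0.11, adjusted p = 0.593) for the first. POLR2E, another shared subunit, had 93.3, 113 and 105 CPM at T30, against 171, 190 and 220 at T29, a last-step change of −0.90 (SE 0.10, adjusted p = 3.21e-06). POLR2D and POLR2G, the pair that forms the stalk of polymerase II, changed by −0.75 (SE 0.07) and −0.87 (SE 0.12) at the last step. In 7 of the 10 subunits the last step lay below the first by the test of the difference, in POLR2B alone above it, and in POLR2A and POLR2F the difference did not pass (adjusted p = 0.129 and 0.945).

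Per exon length, the subunits of this single enzyme differed in the level of counted reads. How read alignment acted on levels between genes was not tested. POLR2A averaged 16.5 TPM over the 12 libraries, the lowest of the 10, and POLR2E averaged 204 TPM, the highest, which is 12.4 times as much. Over all members the range was 3.68 TPM in MED26 to 314 TPM in TAF10, with a median of 30.9 TPM.

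**Figure D4:**
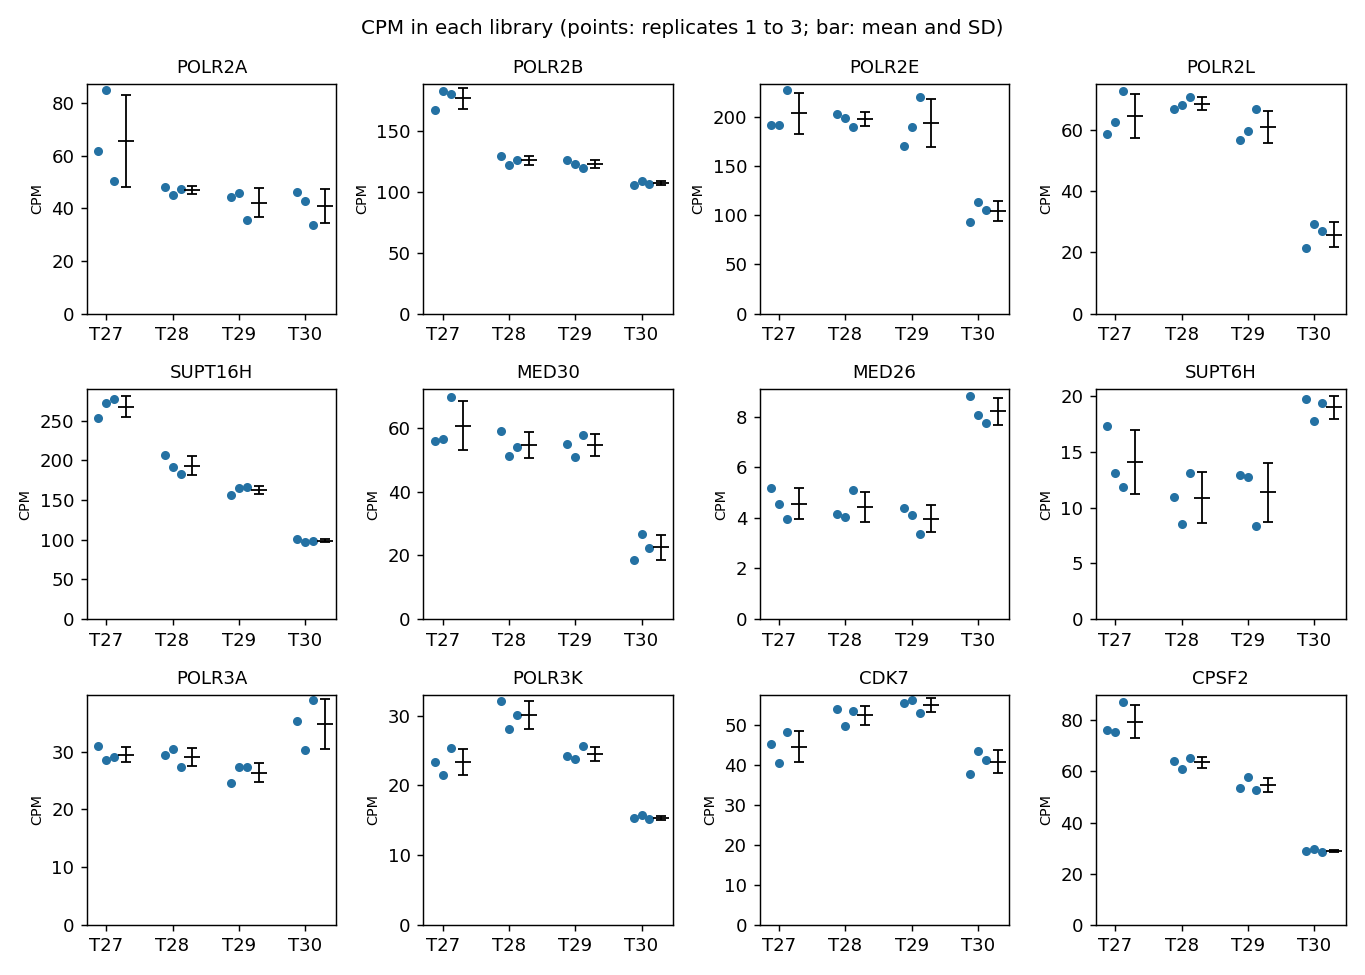
CPM of 12 members in each library (points, replicates 1 to 3) with the mean and SD of each stage beside them; each panel has its own axis from 0. POLR2A and POLR2B are high at T27, POLR2E, POLR2L and MED30 are low at T30, and MED26 and SUPT6H are high at T30.

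In the polymerase III machinery, the enzyme and its factor TFIIIC gave different counts. Of the 9 subunits of the enzyme alone, 6 fell and 2 rose between T27 and T30, with a median log2 change of −0.52, near the −0.56 of all members. Of the 6 TFIIIC subunits 1 fell and 2 rose, with a median of 0.16. Of the 5 members that rose, 4 belong to these 15 genes, and no test of the difference between the groups was run. POLR3A, the largest subunit of polymerase III, had 30.9, 28.5 and 29.1 CPM at T27, 29.5, 30.4 and 27.4 at T28, 24.5, 27.3 and 27.3 at T29, and 35.4, 30.3 and 38.9 at T30. All T30 libraries were above those of T29, and 1 of them lay within the T27 range. The last step was 0.40 (SE 0.10, adjusted p = 0.00277), while the whole-span rise of 0.24 (adjusted p = 0.0419) passed under 8 of 19 alternatives and was lost when any 1 of 8 libraries was left out (highest adjusted p = 0.142, without T30 replicate 3).

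POLR3C, part of a subcomplex that polymerase III uses to open promoters, had 76.3, 65.1 and 87.9 CPM at T30, against 48.1, 48.3 and 54.0 at T29. The 2 stages did not overlap, and the last step was 0.61 (SE 0.11, adjusted p = 0.000224). Its whole-span rise of 0.30 (adjusted p = 0.0219) was lost without T27 replicate 1, T27 replicate 2 or T30 replicate 3 (adjusted p = 0.0941, 0.0801 and 0.0847). POLR3B, the second-largest subunit, went down instead, with 17.9, 19.3 and 22.9 CPM at T30, against 23.6, 27.4 and 27.3 at T27, a change of −0.38 (SE 0.11, adjusted p = 0.00503).

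TFIIIC binds the promoters inside transfer RNA genes. GTF3C3 was the member of it with the steadiest rise: 31.1, 30.4 and 33.3 CPM at T27, 35.3, 37.7 and 35.6 at T28, 37.2, 38.6 and 39.0 at T29, and 40.2, 44.6 and 44.2 at T30. T27 lay below T28 and T29, T28 and T29 overlapped, and T30 was highest in every library. No single step passed the test (adjusted p = 0.0659, 0.537 and 0.0635), and the whole span was 0.44 (SE 0.07, adjusted p = 9e-05) and passed under all 19 alternatives. GTF3C3 shares 2.3% of its exon length with a locus on the other strand, which rose by 0.35 over the span (SE 0.09). GTF3C1, the largest subunit, rose by 0.37 at the last step (SE 0.09, adjusted p = 0.00269), and its whole-span rise of 0.22 (adjusted p = 0.0431) was lost without any 1 of 6 libraries (highest adjusted p = 0.196, without T30 replicate 1). GTF3C6 fell, with 15.6, 19.2 and 16.3 CPM at T30, against 24.5, 21.9 and 31.7 at T27 (log2 change −0.61, SE 0.13, adjusted p = 0.000753).

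POLR3K, a small polymerase III subunit used in ending transcripts, was the 1 member called in opposite directions in consecutive steps. It had 23.3, 21.4 and 25.3 CPM at T27, 32.2, 28.1 and 30.1 at T28, 24.1, 23.8 and 25.7 at T29, and 15.2, 15.7 and 15.1 at T30. The T28 libraries were the highest, T29 overlapped with T27, and T30 lay below every other library. It rose by 0.37 at the first step (SE 0.09, adjusted p = 0.00891, and 0.0541 without T27 replicate 2), fell by 0.30 at the second (SE 0.09, adjusted p = 0.0455) and fell by 0.68 at the last (SE 0.09, adjusted p = 2.26e-05). The second-step call was lost without any 1 of 8 libraries, with the highest adjusted p at 0.178 without T28 replicate 1.

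Of Mediator's 24 members, 18 fell and 1 rose between T27 and T30. The 10 subunits grouped here as its head module, which contacts the polymerase, all fell, with a median of −0.73. Among them the calls of MED8 and MED22 were lost without T30 replicate 1 (adjusted p = 0.144 and 0.0585 in edgeR's quasi-likelihood test). The MED8 call was also lost without T27 replicate 3, with upper quartile scaling and in a fit of only both stages. Neither MED8 nor MED22 passed the test of any change between stages. The middle module fell in 5 of 8 and rose in 1, and the tail, which receives most activators, fell in 3 of 5. CCNC, the 1 kinase-module subunit among the members, had 55.9 to 59.4 CPM at T30 and 61.2 to 70.6 at T27 (log2 change −0.15, adjusted p = 0.0785).

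MED30, of the head group, had 55.9, 56.6 and 69.7 CPM at T27, 58.9, 51.1 and 53.9 at T28, 55.0, 50.9 and 57.8 at T29, and 18.7, 26.6 and 22.3 at T30. Levels overlapped up to T29, and every T30 library was far below all others. The last step was −1.28 (SE 0.12, adjusted p = 5.7e-07), the largest fall of any member at that step, and the whole span was −1.43 (SE 0.12, adjusted p = 7.49e-08). MED11 and MED28, also of the head group, changed by −1.20 (SE 0.10) and −1.14 (SE 0.09) over the span. In the middle module MED31 changed by −0.91 (SE 0.17), and in the tail MED25 by −0.70 (SE 0.06).

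MED26 was the 1 Mediator member that rose between T27 and T30. In human cells this subunit links Mediator to elongation factors. Its level was the lowest of all members per exon length, with 5.16, 4.56 and 3.94 CPM at T27, 4.16, 4.02 and 5.12 at T28, 4.40, 4.11 and 3.38 at T29, and 8.81, 8.05 and 7.75 at T30. Every T30 library was above every other library, and the earlier stages overlapped. The last step was 1.05 (SE 0.16, adjusted p = 6.12e-05), and the whole span was 0.85 (SE 0.16, adjusted p = 0.000261), a 1.80-fold rise, both passing under all 19 alternatives. The RefSeq gene table names 2 further Mediator genes among rows that carry a locus number here and so are no members. The row named MED1, the subunit that binds nuclear receptors, had 64.5, 55.6 and 77.5 CPM at T30, against 31.6, 31.1 and 30.8 at T27. Its change over the span was 1.08 (SE 0.11), and that of the row named MED14, the central scaffold, was 0.28 (SE 0.18, adjusted p = 0.164). Both rows also rose at the last step in edgeR's quasi-likelihood test. MED1 changed by 1.17 there (SE 0.11, adjusted p = 6.22e-07) and MED14 by 0.69 (SE 0.18, adjusted p = 0.00382).

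Among the factors that assemble at promoters, 8 of 10 genes fell in the group of TFIID subunits and the TBP-like gene TBPL1 (log2 change −0.76, SE 0.07), and in the TFIIA, TFIIB, TFIIE and TFIIF group all 6 fell. TAF10, a TFIID subunit that also sits in the coactivator SAGA, is the member with the highest TPM. It had 216, 206 and 258 CPM at T27, 215, 200 and 209 at T28, 203, 192 and 218 at T29, and 103, 130 and 109 at T30. T27, T28 and T29 overlapped and T30 lay apart, with a last step of −0.84 (SE 0.10, adjusted p = 4.63e-06). TAF11 and TAF13, histone-fold partners in TFIID, changed by −0.87 (SE 0.09) and −1.21 (SE 0.12) at the same step. The 8 members grouped as SAGA subunits and polymerase I TAFs (TAF1A, TAF1B and TAF1C) fell in 5 and rose in 0, with a median of −0.29. TAF5L, which takes the place of TAF5 in SAGA, had the largest fall of that group over the span (−1.13). It was 1 of 3 members that fell at every step, a pattern not counted over all genes. TAF5L had 34.7, 37.1 and 36.5 CPM at T27, 28.8, 28.8 and 30.6 at T28, 21.0, 24.2 and 23.5 at T29, and 15.9, 15.6 and 18.1 at T30, with no overlap between stages. Its first-step call was lost without T27 replicate 2 or 3 or T28 replicate 1 or 2 (adjusted p = 0.0903, 0.0713, 0.0808 and 0.0867), and its second without T28 replicate 3 or T29 replicate 1 (adjusted p = 0.069 and 0.0843).

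TFIIH holds the kinase trio CDK7, CCNH (cyclin H) and MNAT1, which phosphorylates the polymerase tail. All 3 fell at the last step, while over the whole span CCNH and MNAT1 fell and CDK7 was not called. CDK7 had 45.1, 40.4 and 48.2 CPM at T27, 54.0, 49.6 and 53.4 at T28, 55.5, 56.2 and 53.0 at T29, and 37.6, 43.3 and 41.3 at T30. Its middle stages were above both ends, and T30 overlapped with T27. The last step was −0.43 (SE 0.08, adjusted p = 0.000369) and the whole span −0.13 (SE 0.08, adjusted p = 0.171). The first-step rise of 0.23 (adjusted p = 0.0473) was lost without any 1 of 7 libraries (highest adjusted p = 0.202, without T27 replicate 2). CCNH, its partner cyclin, had 28.9, 26.0 and 35.0 CPM at T27, 26.4, 23.6 and 25.1 at T28, 20.1, 20.3 and 21.8 at T29, and 12.9, 13.2 and 13.3 at T30. T30 lay below all other libraries, and the whole span was −1.19 (SE 0.11, adjusted p = 1.92e-07). MNAT1, the assembly factor, changed by −0.89 (SE 0.10), but 33.7% of its exon length overlaps exons of TBCB on the other strand, whose reads cannot be told apart here. TBCB rose by 0.44 at the first step (SE 0.09), and its whole-span change of −0.20 (SE 0.09) was not called. CDK9, the pause-release kinase, had 61.2, 59.7 and 66.1 CPM at T30, against 103, 112 and 122 at T27 (log2 change −0.85, SE 0.08, adjusted p = 2.87e-07).

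Elongation factors fell in 8 of 10, by sizes that differed within complexes. SUPT4H1 and SUPT5H form DSIF, which holds the polymerase at the pause and then travels with it. SUPT4H1 had 39.6, 50.9 and 52.9 CPM at T30, against 96.7, 90.5 and 112 at T27 (log2 change −1.06, SE 0.11), and SUPT5H had 122, 128 and 129 CPM at T30, against 162, 158 and 164 at T27 (−0.35, SE 0.06). In both genes T30 lay wholly below T27. SUPT4H1 shares 11.8% of its exon length with a locus on the other strand, which rose by 0.88 over the span (SE 0.08). In the PAF1 complex, which moves with the elongating enzyme, the changes were −0.85 for LEO1 (SE 0.06), −0.47 for CTR9 (SE 0.07), −0.27 for CDC73 (SE 0.07) and −0.18 for PAF1 (SE 0.06), all 4 past the threshold. ELOC, elongin C, which also serves as an adaptor in ubiquitin ligases, had 145, 174 and 151 CPM at T30, against 255, 249 and 287 at T27 (−0.75, SE 0.08).

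SUPT6H, a histone chaperone that binds the elongating polymerase, rose at the last step. It had 17.4, 13.2 and 11.9 CPM at T27, 10.98, 8.57 and 13.2 at T28, 12.97, 12.8 and 8.37 at T29, and 19.8, 17.8 and 19.4 at T30. The earlier stages overlapped and T30 was above all of them. The step was 0.74 (SE 0.19, adjusted p = 0.00379), and the whole span of 0.43 did not pass (SE 0.19, adjusted p = 0.0569). The row named SUPT6H holds 989 bp of exon, so its values stand for that stretch alone. Whether it covers the whole gene was not tested.

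FACT, the chaperone that takes nucleosomes apart and rebuilds them during transcription and DNA replication, fell in both subunits. SUPT16H was called at every step and SSRP1 at the first alone, and no test compared the courses of these genes. SUPT16H, on the plus strand of NC_046131.1 at positions 5872932 to 5898150, had 253, 272 and 278 CPM at T27, 207, 191 and 182 at T28, 156, 165 and 167 at T29, and 101, 97.5 and 98.0 at T30. No 2 stages overlapped. The whole span was −1.44 (SE 0.07, adjusted p = 1.51e-10), and each step was called, the second losing its call without T28 replicate 1 or 2 or T29 replicate 1 or 2 (adjusted p = 0.131, 0.0622, 0.1 and 0.056). SSRP1, its partner, had 66.3, 54.0 and 57.6 CPM at T27, 40.2, 32.8 and 46.4 at T28, 33.6, 35.0 and 23.6 at T29, and 31.2, 29.6 and 34.2 at T30. T27 was above all later libraries, and T29 and T30 overlapped. Its first step was −0.58 (SE 0.15, adjusted p = 0.01, and 0.0513 without T28 replicate 2) and its last 0.04 (SE 0.15, adjusted p = 0.82).

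Integrator, which cleaves the RNA of paused polymerases and the ends of small nuclear RNA, fell in all 13 members, and the cleavage and polyadenylation factors in all 6. INTS12 had the largest fall of any member: 36.7, 35.6 and 37.8 CPM at T27, 27.8, 27.6 and 26.9 at T28, 26.1, 26.6 and 26.1 at T29, and 13.3, 13.6 and 11.4 at T30. T27 stood above T28, T28 above T29 and T29 above T30 in every library, and the whole span was −1.52 (SE 0.09, adjusted p = 1.32e-09). A locus on the other strand overlaps 29.6% of its exon length and averaged 1.24 CPM at T30 and 1.34 CPM at T27. INTS11, the endonuclease, changed by −0.59 (SE 0.08) and INTS1, the scaffold, by −0.57 (SE 0.08). CPSF2, of the cleavage complex, had 28.7, 29.4 and 28.5 CPM at T30, against 76.2, 75.3 and 87.1 at T27 (−1.46, SE 0.07, adjusted p = 3.24e-10). CPSF3, the nuclease that cuts the transcript, had 90.03, 99.5 and 90.5 CPM at T30, against 142, 146 and 163 at T27 (−0.69, SE 0.07), and neither pair of stages overlapped.

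By step, the first, T28 against T27, held 27 falls and 2 rises among the members, POLR3K and CDK7. That is 25.9% of the members, beside 26.0% of all genes tested, so the share called was near the background, while 24.1% of members fell beside 11.8% of all genes. Rises were 1.79% of members beside 14.3% of all genes. Among genes with a symbol, 24.6% were called and 12.6% fell. Integrator gave 8 of the falls, the cleavage factors 4 and FACT 2, and the largest was CPSF4, with 7.75, 7.37 and 8.40 CPM at T28, against 11.1, 13.6 and 11.8 at T27 (−0.63, SE 0.14, adjusted p = 0.00327). Single libraries carried weight here: 20 of the 29 calls were lost without at least 1 library, and 18, 13, 17, 16 and 14 members were called without T27 replicate 2, T27 replicate 3, T28 replicate 1, T28 replicate 2 and T28 replicate 3, taken in that order.

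The second step, T29 against T28, held 8 falls (7.14% of members, beside 13.4% of all genes called, 5.54% lower and 7.86% higher, and 12.7%, 6.09% and 6.62% of those with a symbol): TAF3, TAF5, TAF5L, INTS5, MED16, POLR3K, CPSF1 and SUPT16H, with changes of −0.21 to −0.37. No member rose at the adjusted threshold in edgeR's test. At an unadjusted p under 0.05, 2 were higher in edgeR, limma voom and DESeq2 alike. At that looser threshold 18, 19 and 18 were lower, in the same order of tools. Each of the 8 calls was lost without at least 1 library, and 1 to 4 members were called when any T28 or T29 library was left out. TAF3, which reads a histone mark of active promoters for TFIID, had 77.9, 79.8 and 87.8 CPM at T29, against 107, 99.3 and 97.5 at T28 (−0.31, SE 0.07, adjusted p = 0.014, and 0.0737, 0.0651 and 0.0508 without T28 replicate 1, T29 replicate 1 and T29 replicate 2).

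The last step, T30 against T29, held 68 falls and 6 rises, 66.1% of members beside 60.3% of all genes called. Falls made up 60.7% of members beside 30.1% of all genes, and rises 5.36% beside 30.3%. Among genes with a symbol, 63.8% were called, 39.9% lower and 23.9% higher. The rises were MED26, SUPT6H, POLR3C, POLR3A, GTF3C1 and GTF3C4, a TFIIIC subunit that changed by 0.33 (SE 0.10, adjusted p = 0.0123, and 0.0581 and 0.0668 without T29 replicate 1 and T30 replicate 2). In all, 47 members were called at this step alone and lower, 15 fell at the first and last steps, 8 fell at the first step alone, and 27 were called at no step. These patterns were not counted over all genes, so no background share stands beside them.

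The first and last steps share no library, so their difference could be tested gene by gene. It passed in 48 members, 42.9% beside 44.8% of all genes, with the last step below the first in 38 (33.9%, beside 24.3%) and above it in 10 (8.93%, beside 20.5%). Among genes with a symbol it passed in 47.1%, 30.5% below and 16.6% above. The 10 are POLR2B, POLR3A, POLR3C, GTF3C1, GTF3C4, TAF3, TAF7, MED26, SUPT6H and SSRP1. Of the 48, 36 passed with any library left out. Those of POLR3A, GTF3C4, TAF7 and SSRP1 did not (adjusted p up to 0.0638 without T30 replicate 3, 0.0697 without T29 replicate 1, 0.122 without T27 replicate 3 and 0.0693 without T30 replicate 3), nor did the lower ones of CCNH, INTS13, MED6, MED7, MED20, SUPT3H, SUPT16H and SUPT20H (up to 0.123). The size of the last step also varied with exon length among members: 82.1% of the 28 members under 1500 bp fell, 65.7% of the 35 between 1500 and 3000 bp and 44.9% of the 49 longer ones, whereas among all genes the shares were 28.2%, 33.9% and 28.4%. Spearman's rho between length and last-step change was 0.42 across the 112 members and 0.07 across all genes. Among members it had the opposite sign at the first step, −0.15, and at the second, −0.34. Over the whole span it was 0.20, and the length classes, from short to long, fell in 82.1%, 80.0% and 79.6%. Genes of the same libraries are not independent replicates, and the part of length in the result was not tested.

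**Figure D5:**
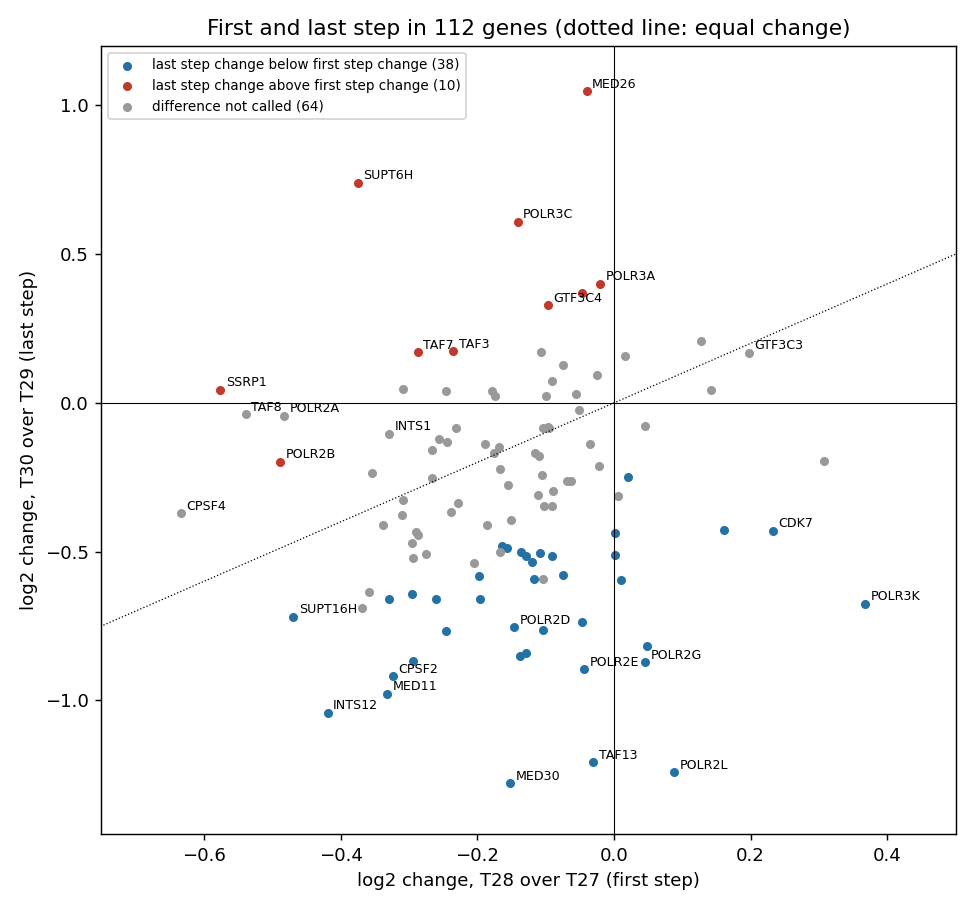
Each point is a member, with the log2 change of T28 over T27 on the x axis and of T30 over T29 on the y axis; colour marks whether the test of the difference between steps passed. POLR2L, MED30 and TAF13 lie near 0 on the x axis and under −1.2 on the y axis, and POLR2A and SSRP1 lie near 0 on the y axis.

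Related genes outside the symbol rule were counted in the same way. Of 43 other polymerase II transcription and transcript-end genes found from a list of 67, 28 fell and 4 rose between T27 and T30 (65.1% and 9.3%, beside 44.1% and 28.1% of genes with a symbol), with a median of −0.54. At the last step, T30 against T29, 19 of them fell (44.2%, beside 39.9% of genes with a symbol) and 6 rose. NUDT21, a cleavage factor, and NELFCD, a subunit of the pausing factor NELF, changed by −1.22 (SE 0.08) and −1.16 (SE 0.09), and SSU72, a phosphatase of the polymerase tail, had 5.20, 6.88 and 5.11 CPM at T30, against 2.81, 2.76 and 3.04 at T27. Of 12 polymerase I and III genes outside the rule, found from a list of 20, 8 fell between T27 and T30 and 0 rose. That is 66.7% lower, beside 44.1% of genes with a symbol, with a median of −0.61. Among the falls was POLR1B, the second-largest polymerase I subunit (−0.97, SE 0.09).

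Markers of cell types changed over the same stages. All 21 dividing-cell markers found, from a list of 32, fell between T27 and T30 (median −2.59), and their summed level lay between 3785 and 4140 CPM in T27 libraries, 2927 and 3132 in T28, 2201 and 2320 in T29, and 676 and 753 in T30. No stage overlapped with the next in that sum. Of these markers 16 fell at the first step, 16 at the second and 21 at the last. Connective tissue markers fell in 4 of 5 found, from a list of 17, with sums of 426 to 468 CPM at T30, against 1341 to 1447 at T27. Muscle markers rose in 6 of 6 found, from a list of 21 (632 to 1132 CPM at T30, against 104 to 139 at T27). Pigment markers rose in 7 of 8 found, from a list of 10 (19.2 to 19.4 CPM at T30, against 3.98 to 5.37 at T27). Pigment sums were 33.5 to 37.4 CPM at T29, and 5 of 8 fell at the last step. Motile cilia markers rose in 15 of 15 found, from a list of 24 (1721 to 2008 CPM at T30, against 490 to 627 at T27). None of 13 leukocyte and erythroid markers was matched by symbol, so these cells were not analysed here. No marker found from the lists given here lacked counts in all 12 libraries, and this was not checked stage by stage. The part of the markers in the members' changes was not tested.

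Reads were counted without strand, and 14 members share exon sequence with another gene. Among the 98 members that do not, 80 fell and 4 rose between T27 and T30, with a median of −0.58.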

How the data were processed

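RNA of sea lamprey endostyle was analysed at 4 stages with 3 libraries each, grouped by the stage in each label. The authors deposited a table of unnormalized counts by gene, made, per the file headers, with featureCounts 1.6.3 on a kPetMar1 annotation, by gene, from first-read files and with no strand option; exon length and positions come from the same table. The submitters' processing notes also name Bowtie2 and DESeq2; no version was given in the sources used here. A second deposited table holds a score, the z-score of a gene across 6 columns without replicates, and was only described. The endostyle marker list is not reported here.

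The members and lists were chosen with earlier results of these data known. Genes passing edgeR's filterByExpr (minimum count 10), 16526 in number, were scaled by TMM and fitted with a quasi-likelihood model over all 12 libraries (edgeR 4.0.16, R 4.3.3; 8 residual degrees of freedom, biological coefficient of variation 12.4%), with two-sided tests, Benjamini-Hochberg adjustment over all genes tested and a threshold of 0.05. An SE is the absolute log2 change over the square root of F. The procedure was tested on simulated data. Named members are fixed catalytic or scaffold subunits and the largest changes over the span, by step and by role. Members called in opposite directions and the extremes in TPM are named too. Of the fixed set, TBP, TAF1, CDK8, CDK12, MED12 and TCEA1 were not found, and MED1, MED14 and CSTF2 only as rows with locus numbers. POLR2F, POLR2G, MNAT1, CCNC, CDC73, PAF1, GTF3C4, TAF7 and others in groups of 5 or fewer were named after their values were seen. Alternatives were DESeq2 1.42.0, limma 3.58.1 voom, RLE and upper quartile scaling, no filter, fits of only both stages, a replicate block and leaving out each library. The RefSeq gene table (assembly UKy_Petmar_22M1.pri1.0, another build) served for names alone. Separate animals are not stated, so the p-values reflect variation among libraries that may be technical only.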

Additional observations from a re-analysis of the deposited data

How the results depend on the processing

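Over the whole span, 95 members were called, and 89 to 96 with 1 library left out (86 to 90 lower, 2 to 6 higher). The higher count of 5 became 3 with no filter on low counts, and it was 2 without T27 replicate 2 and 3 without T28 replicate 1 or T30 replicate 1. At the last step, leaving out a library gave 67 to 75 calls (60 to 69 lower, 5 to 8 higher), and upper quartile scaling gave 10 higher in place of 6. At the first step the range was 13 to 31 (11 to 29 lower, 0 to 3 higher), with 1 higher in place of 2 under RLE scaling, no filter or the replicate block. At the second step it was 1 to 10, all lower, and a fit of only T28 and T29 called 1 higher. The test of any change gave 88 to 97 and the difference between steps 38 to 52 (7 to 10 above, 30 to 43 below).

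Replicate numbers were not taken to pair the samples. Correlations of deviations from the stage mean ran from −0.289 to 0.241 for same-numbered libraries and from −0.181 to 0.239 for others. Deviations within a stage constrain one another, so these values cannot decide whether samples were paired. With the number as a replicate block, 4 members in place of 8 were called at the second step, all lower, 25 at the first, 72 at the last, 95 over the span, 94 for any change and 44 for the difference. Of 3800 values of 50 named members under alternatives, 3637 kept their direction and side of the threshold, 133 lost a call, 30 gained one and 0 changed sign. The causes were not tested. MED21, MED31 and MED26 rest on the fewest counts of the members, at least 50, 83 and 107 per library.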

Other observations

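In the authors' deposited table of z-scores, which sets the 4 lamprey stages beside a Ciona and a zebrafish column, 54 of the 112 members are among 1671 genes. The lowest score of a member stood at T30 in 35 (64.8%), at T29 in 15 and at T28 in 3, beside 39.6% of all genes in that table with their lowest score at T30. The highest score stood in the Ciona column in 35 members (64.8%), beside 56.6% of all genes. No column of that table has replicates, so no error can be given. Besides MED1 and MED14, the RefSeq table named 4 rows with locus numbers after genes of the rule's families: CSTF2 (−0.73, SE 0.11), TAF6 (−0.67), GTF2A1 (−0.56) and CCNT2 (−0.40) were lower at T30 than at T27, each past the adjusted threshold of 0.05 in edgeR's quasi-likelihood test.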
